A study of Mus musculus with 8 samples.

Results

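The 9 metabolic and steroid nuclear receptors Nr1i2, Nr1i3, Nr1h4, Nr0b2, Nr1h3, Ppara, Pparg, Rxra and Esr1 were followed in mouse liver on 8 microarrays. Every gene probe that carried 1 of these symbols in the array files, or matched 1 through its transcript accession, was taken. That gave 11 of the 33330 probes kept and all 9 receptors among 22220 genes. Esr1 and Rxra had 2 probes each and the others 1. All 11 probes were well above background in both channels on all 8 arrays, and no spot of theirs was saturated, so no receptor was lost to the filter on dim probes.

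The mice were ICR scid mice aged 8 weeks in every group, controls included. The scid mutation blocks the maturation of T and B lymphocytes, while natural killer cells and phagocytes remain. The 8 groups were untreated males (10 mice), untreated females (10), males 5 days after the adenovirus Adeno-Cux2 (12) or the control adenovirus Adeno-CMV (13), females 5 days after Adeno-Cux2 (8) or Adeno-CMV (7), and males 3 days after Adeno-Cux2 (11) or Adeno-CMV (11). Adeno-Cux2 delivers Cux2, a homeobox transcription factor that is more abundant in female than in male mouse liver, and the arrays set its overexpression against the control virus, so both arms of those comparisons received a virus. The label text of the female arrays states their purpose as overexpression in males, so it does not settle the aim for females. Virus dose and route are not given in the sources used here. An array carried 2 RNA pools of 3 to 7 mice, each in its own dye. A comparison was made on 2 arrays, which held different pools and opposite dye assignments. Values below are log2 ratios, of males over females or of Adeno-Cux2 over Adeno-CMV, with the standard error of 1 model over all 8 arrays and n = 2 arrays. Called means an adjusted p below 0.05 in limma, with Benjamini-Hochberg adjustment over all genes.

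Cux2 itself stood at −1.88 ± 0.09 in untreated males over females, at 0.60 ± 0.09 in males at day 5 and at 0.49 ± 0.09 in males at day 3. Female arrays (day 5) gave −0.61 ± 0.09 (adjusted p = 0.0045), lower on both arrays in the pools labelled Adeno-Cux2. The direction of every female value below therefore rests on a label that this probe goes against. That probe need not read the RNA made by the virus. As labelled, 0.207% of all genes, Cux2 among them, were called for a difference between the female and the male response at day 5. Of 9 neutrophil markers, 8 were higher in both responses and none lower. Of 10 muscle markers, 7 were lower in females and 1 higher in males. Whether the female labels were swapped was not tested.

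Nuclear receptors are transcription factors that small lipophilic ligands switch on or off. Many bind DNA as a heterodimer with a retinoid X receptor such as Rxra, at repeats of the hexamer AGGTCA. In liver they sense drugs and bilirubin (Nr1i2, the pregnane X receptor, and Nr1i3, the constitutive androstane receptor), bile acids (Nr1h4, the farnesoid X receptor), oxysterols (Nr1h3, a liver X receptor) and fatty acids (Ppara and Pparg). Nr0b2, the small heterodimer partner, has no DNA-binding domain and represses other receptors, and its own gene is a classical target of Nr1h4. Esr1 is the estrogen receptor alpha.

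Promoter sequences were taken from RefSeq on GRCm38.p6, which held 14 promoters for all 9 receptors. The stretches below are the 250 bases before the transcription start, 5′ to 3′ on the gene's strand. They are shown for the receptors whose response in males differed between day 5 and day 3. Capitals mark the receptor hexamer AGGTCA and the extended monomer site TCAAGG, bound by Nr5a2 and the estrogen-related receptors, on either strand. The promoters lie at chr4:133553126-133553375 (Nr0b2, plus strand), chr1:171213720-171213969 (Nr1i3, plus), chr15:85735526-85735775 (Ppara, plus) and chr2:27709042-27709291 (Rxra, plus, the downstream of its 2 promoters).
Nr0b2: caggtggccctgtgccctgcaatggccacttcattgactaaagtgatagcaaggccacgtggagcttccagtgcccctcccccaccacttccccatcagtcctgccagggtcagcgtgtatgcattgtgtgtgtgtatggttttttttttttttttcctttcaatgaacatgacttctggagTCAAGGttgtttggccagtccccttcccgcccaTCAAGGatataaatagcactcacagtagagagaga
Nr1i3: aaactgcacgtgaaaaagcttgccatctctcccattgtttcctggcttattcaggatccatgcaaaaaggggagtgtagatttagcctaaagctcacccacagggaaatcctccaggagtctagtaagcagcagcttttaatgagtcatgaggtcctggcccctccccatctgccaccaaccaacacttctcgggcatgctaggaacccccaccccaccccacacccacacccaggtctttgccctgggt
Ppara: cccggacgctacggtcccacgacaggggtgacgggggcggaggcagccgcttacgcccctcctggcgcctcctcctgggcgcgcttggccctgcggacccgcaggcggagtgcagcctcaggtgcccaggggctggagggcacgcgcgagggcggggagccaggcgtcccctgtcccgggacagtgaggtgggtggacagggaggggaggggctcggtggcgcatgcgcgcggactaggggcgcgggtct
Rxra: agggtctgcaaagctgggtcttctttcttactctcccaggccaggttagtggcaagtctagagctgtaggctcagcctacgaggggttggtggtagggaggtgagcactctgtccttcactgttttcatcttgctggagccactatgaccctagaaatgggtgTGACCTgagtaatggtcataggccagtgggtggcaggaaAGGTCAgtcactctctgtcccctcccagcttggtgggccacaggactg

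Nr0b2 held TCAAGG at 68 and 35 bases before the start and was the only receptor promoter of the 14 with it, against 12.5% of all 32851 promoters in the table. The downstream Rxra promoter held the hexamer at 87 bases before the start, as its reverse complement TGACCT, and at 48 bases. Over the receptors the hexamer was in 4 of 14 promoters (Nr1h4, 2 of Pparg and 1 of Rxra), against 14.0% of all promoters. None of the 14 held the Cux core site ATCGAT, which 0.728% of all promoters held. The STAT motif TTCNNNGAA was in 2 of 14 (Nr0b2 and 1 of Esr1), against 7.02% of all. The Ppara and Nr1i3 stretches held none of these motifs on either strand, and the Ppara stretch was 76.4% G and C, against a median of 52.4% over all promoters. These matches describe the letters in a window of 250 bases and show no binding.

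Among the receptors called, lower values with Adeno-Cux2 than with Adeno-CMV outnumbered higher ones in males at day 3. In males at day 3, 7 of 9 receptors were called, 1 higher and 6 lower, where 44.0% of all genes were called (23.7% higher and 20.3% lower). Males at day 5 had 2 called, 1 in each direction, against 18.8% of all genes (13.9% higher and 4.95% lower). Among females at day 5, 3 were called, all lower in the pools labelled Adeno-Cux2 (all higher if those labels were swapped), against 19.1% (12.8% higher and 6.31% lower). Between the untreated sexes 2 were called, both lower in males, against 11.1% (4.93% higher and 6.14% lower). The counts of the gene lists below are to be read beside these same shares. Those lists were chosen with earlier results of these data known, so their counts are no independent check of the receptor values. The median log2 ratio of the 9 was −0.52 for males at day 3 and −0.20 at day 5, −0.23 for females and −0.05 for the untreated sexes, while the median of all genes lay between −0.01 and 0.01. Ppara lay farthest from 0 in males at day 3 and in females, Nr0b2 in males at day 5 (−0.53) and Esr1 between the untreated sexes. Median centring in place of loess moved the day 3 split to 2 receptors higher and 4 lower, and the day 5 split of males to 0 and 1. At day 3 it moved all genes to 6083 higher and 2793 lower, from 5275 and 4508. In each of the cases that follow, 1 array was left in the comparison, and the calls among all genes fell as well. Without replicate 2 of males at day 3 the 7 calls there fell to 3, without either male day 5 array the 2 there to 0, without female replicate 1 or 2 the 3 there to 0 or 1, and without untreated replicate 1 the 2 there to 1.

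**Figure D1:**
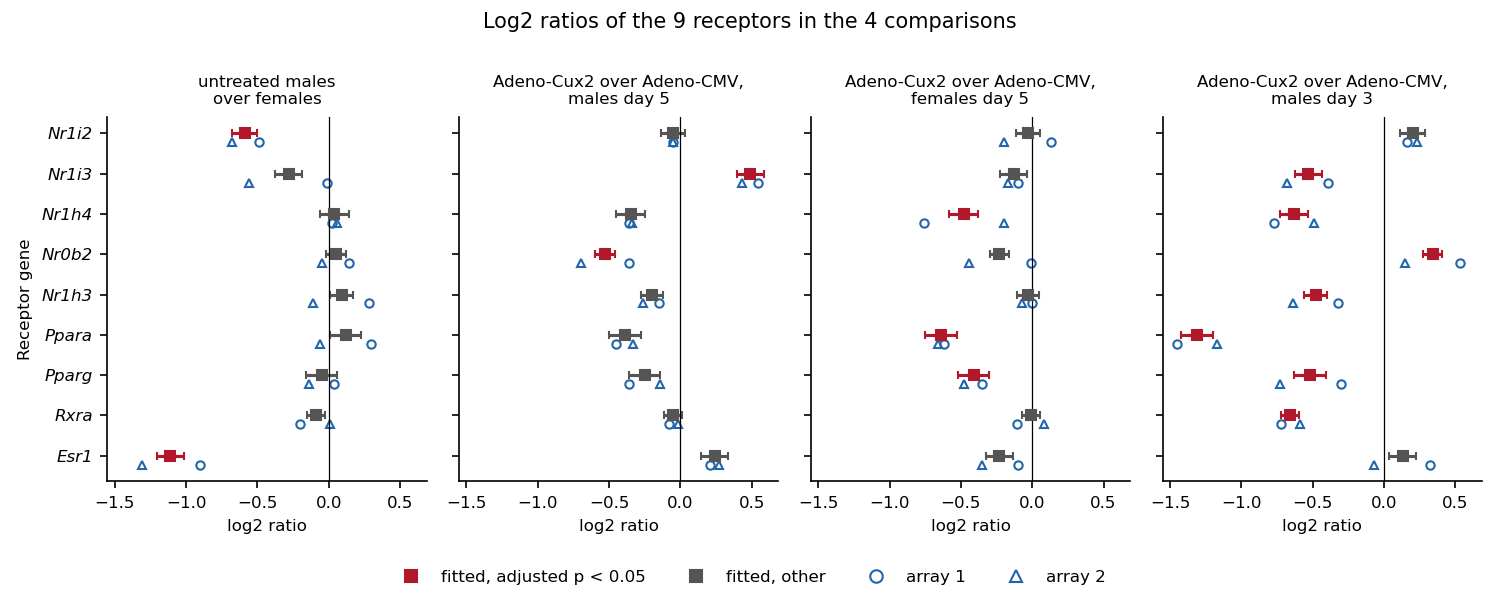
The plot gives the log2 ratio (horizontal axis) of each receptor (rows) in the 4 comparisons (panels). Squares with bars are the fitted ratio and its standard error, red where the adjusted p was under 0.05, and open symbols are the 2 arrays. Ppara lies farthest left in males at day 3 (−1.31) and Esr1 farthest left between the untreated sexes (−1.11).

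Nr1i2, the receptor for drugs and other foreign compounds that drives Cyp3a genes, was lower in untreated males than in untreated females. The 2 arrays gave −0.49 and −0.68, so both lay on the same side, with a fitted ratio of −0.59 ± 0.08 (1.5-fold lower, adjusted p = 0.0088). No comparison of Adeno-Cux2 with Adeno-CMV passed the test. Males at day 5 gave −0.05 on each array (adjusted p = 0.773). Females at day 5 gave 0.13 and −0.20, on both sides of 0 (adjusted p = 0.852). Males at day 3 gave 0.16 and 0.23 (fit 0.20, adjusted p = 0.106), and with median centring the fit rose to 0.36 and was called (adjusted p = 0.039). The call between the sexes was lost without untreated replicate 1 (adjusted p = 0.0858).

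Nr1i3, the constitutive androstane receptor that drives Cyp2b10, was higher after Adeno-Cux2 in males at day 5 and lower in males at day 3. At day 5 the arrays read 0.54 and 0.43, and the fit gave 0.49 ± 0.09 (1.4-fold, adjusted p = 0.0138). At day 3 they read −0.39 and −0.68, and the fit gave −0.53 ± 0.09 (adjusted p = 0.00411). No array of one day overlapped those of the other. The female value was −0.13 ± 0.09 (adjusted p = 0.408). In the untreated comparison the arrays read −0.01 and −0.56, a wide split around −0.28 ± 0.09 (adjusted p = 0.108). The day 5 call was lost without either of its own arrays (adjusted p = 0.115 and 0.288), under the log ratios of the software (0.0878) and under median centring (0.0512), and the day 3 call without its replicate 2 (0.0693) and with median centring (0.0511).

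Target genes of Nr1i2 and Nr1i3 were more often lower than higher in untreated males. Over all genes, 6.14% were called lower in untreated males and 4.93% higher. The list was chosen with earlier results of these data known, so the share of its genes called is no independent evidence. Of the 25 targets listed and measured, 17 were lower in males and 1 higher, with a median of −0.65. The lowest was Cyp2c38, a cytochrome of the Cyp2c family, at −2.87 ± 0.09, and the 1 called higher was Aldh1a1, a retinaldehyde dehydrogenase, at 0.67 ± 0.10. After Adeno-Cux2 in males at day 5, 12 were higher and 3 lower (median 0.46), against 13.9% and 4.95% of all genes. Akr1b7, an aldo-keto reductase, led at 3.11 ± 0.14 (8.65-fold), while Aldh1a1 fell by 1.4 on the log2 scale. In females at day 5, 8 were higher and 5 lower in the pools labelled Adeno-Cux2 (median 0.31), from Akr1b7 at 2.80 ± 0.14 to Cyp2c38 at −1.98 ± 0.09. At day 3 in males, 9 were higher and 11 lower (median 0.14), from Akr1b7 at 3.16 ± 0.14 to Cyp2c37 at −2.35 ± 0.11. Akr1b7 stood at about the same ratio at day 5, where Nr1i3 was higher, and at day 3, where Nr1i3 was lower. The part of either receptor in the Akr1b7 values was not tested. Cyp2b10, the classical Nr1i3 target, named here after its values were seen, was lower in untreated males (−1.91 ± 0.11). It was higher in males at day 5 (0.74 ± 0.11, adjusted p = 0.00546) and at 0.14 ± 0.11 at day 3 (adjusted p = 0.384). In females it stood at −0.10 ± 0.11 (adjusted p = 0.645). Cyp3a11, the classical Nr1i2 target, also named afterwards, had arrays on both sides of 0 in all 4 comparisons, as far apart as 0.98 and −0.75 in females. Its fit with the dye term was called lower in males at day 3 (−0.37 ± 0.08, adjusted p = 0.00939). It was not called in males at day 5 (0.07 ± 0.08, adjusted p = 0.615) or in females (0.12 ± 0.08, adjusted p = 0.392). The 17 lower calls became 8 without untreated replicate 1, and 11 both with no background subtraction and with the software's log ratios. The 12 higher calls in males at day 5 became 5 without replicate 1 there, 8 with no background subtraction and 6 with the software's log ratios, the 11 lower at day 3 became 6 without its replicate 1, and the 8 higher in females became 5 without female replicate 1.

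Nr1h4, the bile acid receptor, was lower with Adeno-Cux2 than with Adeno-CMV in males at day 3 and in the female pools so labelled. Female arrays read −0.76 and −0.20, for a fit of −0.48 ± 0.10 (adjusted p = 0.0211). Male day 3 arrays read −0.77 and −0.49, for −0.63 ± 0.10 (adjusted p = 0.00293). Both arrays of males at day 5 were also below 0 (−0.36 and −0.34), although the fit there, −0.35 ± 0.10, did not pass the test (adjusted p = 0.062). Untreated males and females were close, at 0.02 and 0.06 on the arrays (adjusted p = 0.849). Leaving out female replicate 1 ended the female call (−0.25, adjusted p = 0.329), as did no background subtraction (0.0513) and the software's log ratios (0.0678), and leaving out male day 3 replicate 1 ended the day 3 call (−0.59, adjusted p = 0.0525). Leaving out either female array turned the male day 5 value into a call (adjusted p = 0.0283).

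Nr0b2, the repressor that Nr1h4 induces, changed in opposite directions in males at the 2 times. At day 5 the arrays read −0.36 and −0.70, and the fit was −0.53 ± 0.07 (1.44-fold lower, adjusted p = 0.00252). At day 3 they read 0.53 and 0.15, and the fit was 0.34 ± 0.07 (adjusted p = 0.00696). The 2 days did not overlap. Female arrays read −0.01 and −0.44, with the fit at −0.23 ± 0.07 (adjusted p = 0.064), and untreated males over females read 0.14 and −0.05 (adjusted p = 0.718). Where Nr1h4 was lower in males at day 3, Nr0b2 was higher. The day 3 call was lost without the dye term (adjusted p = 0.0907) and without either of its arrays (0.0993 and 0.07), and the day 5 call without either of its arrays (0.0772 and 0.0834). Leaving out either untreated array turned the female value into a call (adjusted p = 0.0376), as did no background subtraction (0.0224).

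Nr1h4 and Nr0b2 had 18 listed target genes, of which 16 were measured. In males at day 3, 4 were higher and 9 lower (all genes 23.7% and 20.3%), with a median of −0.45. Cyp8b1, the sterol hydroxylase that makes cholic acid, was the lowest, at −3.50 ± 0.20 (11.3-fold lower), and Slc51b, a subunit of the basolateral bile acid exporter, the highest, at 2.41 ± 0.13 (5.30-fold). The same 2 genes led the list in the other comparisons. Cyp8b1 was at −1.07 ± 0.20 in day 5 males, −1.97 ± 0.20 in day 5 females and 1.14 ± 0.20 in untreated males over females. Slc51b was at 1.06 ± 0.13, 0.89 ± 0.13 and −0.71 ± 0.13 in the same order. Each of the 2 genes therefore had the opposite sign in untreated males over females to that after Adeno-Cux2. Counts were 5 higher and 2 lower in males at day 5 (median 0.07), 4 and 4 in females (median 0.04), and 1 and 2 between the untreated sexes (median −0.12). Between the untreated sexes, none was called either way with the software's log ratios. With no background subtraction, none was higher and 1 lower, so the untreated Cyp8b1 call was lost in both settings. Cyp7a1, the rate-limiting enzyme of bile acid synthesis, named after its values were seen, was lower in males at day 3 (−1.28 ± 0.22, adjusted p = 0.00334). It stood at 0.63 ± 0.22 in males at day 5 (adjusted p = 0.0975). Females gave 0.55 ± 0.22 (arrays −0.11 and 1.21, adjusted p = 0.136) and untreated males over females −0.64 ± 0.22 (adjusted p = 0.11). Abcb11, the bile salt export pump, likewise named afterwards, was at 0.31 ± 0.07 in males at day 5 and −0.46 ± 0.07 at day 3, both called. Its values of 0.16 ± 0.07 in females and −0.20 ± 0.07 in untreated males over females were not called. Without male day 5 replicate 2 the 5 higher calls there became 1. Without male day 3 replicate 1 the 4 higher there became 2, and without female replicate 1 the 4 higher there became 2.

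Nr1h3, the oxysterol receptor of cholesterol efflux and lipogenesis, was called only in males at day 3. Its arrays there read −0.32 and −0.64, for a fit of −0.48 ± 0.08 (1.4-fold lower, adjusted p = 0.00288). Day 5 males read −0.15 and −0.26, also below 0 on both arrays, but did not pass (adjusted p = 0.137). The female ratio was −0.03 ± 0.08 (adjusted p = 0.837) and untreated males over females at 0.09 ± 0.08 (adjusted p = 0.522). The day 3 call was lost without its replicate 2 (−0.42, adjusted p = 0.0661) and with median centring (−0.30, adjusted p = 0.0634).

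The 16 targets of Nr1h3 were called 3 higher and 8 lower in males at day 3 (median −0.44), against 23.7% and 20.3% of all genes. Scd1, the stearoyl-CoA desaturase, was at −1.59 ± 0.24 and Lpl, lipoprotein lipase, at 1.75 ± 0.13. Day 5 males had 4 higher and none lower (median 0.17), led by Abcg1, a cholesterol exporter, at 1.68 ± 0.10. Females at day 5 had 7 higher and 1 lower (median 0.22), from Lpl at 2.21 ± 0.13 to Mlxipl, the carbohydrate response element binding protein, at −0.65 ± 0.17. Between the untreated sexes 1 was higher and 4 lower (median −0.16), with Lpl at 0.59 ± 0.13 and Fasn, fatty acid synthase, at −1.09 ± 0.24. With no background subtraction, and with the software's log ratios, none was called either way between the untreated sexes, and without untreated replicate 1 none was lower. Without female replicate 2 the 7 higher calls there became 4, and without male day 3 replicate 1 the 8 lower there became 5. Lpl and Abcg1 are also made by macrophages, whose markers rose in the same arrays (below), and the part of those cells in these values was not tested.

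Ppara, the fatty acid receptor of hepatic beta-oxidation, showed the largest fall of the 9 receptors. In males at day 3 the arrays read −1.45 and −1.17, and the fit was −1.31 ± 0.11 (2.48-fold lower, adjusted p = 0.000159), which placed it 406th from the lowest of 22220 genes. Female arrays read −0.62 and −0.66, and the fit was −0.64 ± 0.11 (1.56-fold lower, adjusted p = 0.009). Male day 5 arrays read −0.45 and −0.33, and the fit of −0.39 ± 0.11 lay just outside the threshold (adjusted p = 0.0513). All 4 male arrays were thus below 0, the 2 of day 3 lower than the 2 of day 5, and both female arrays were below 0 as labelled (above 0 if those labels were swapped). Untreated males over females read 0.30 and −0.06, on both sides of 0 (adjusted p = 0.522). The day 3 call held under all 20 alternatives, from −1.50 to −1.12 (largest adjusted p = 0.00483). The female call was lost without either of its own arrays (adjusted p = 0.0987 and 0.0951), and the male day 5 value was called without either untreated array (adjusted p = 0.0157), without the dye term (0.0402) and with only the arrays of its own slide (0.0424), among other alternatives.

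The 31 Ppara targets, mostly genes of fatty acid oxidation, did not move one way with the receptor. At day 3 in males, 12 were higher and 11 lower, against 23.7% and 20.3% of all genes. The median of the targets was 0.00 (−0.01 to 0.12 under the other scalings). Pdk4, the kinase that inhibits pyruvate dehydrogenase, was the highest at 3.41 ± 0.20 (10.6-fold). Day 5 males had 9 higher and 11 lower (median −0.11), from Cyp4a14, a fatty acid hydroxylase, at 2.18 ± 0.35 to Vnn1, a pantetheinase, at −1.96 ± 0.20. Females at day 5 had 3 higher and 9 lower (median −0.15), from Acot1, an acyl-CoA thioesterase, at 1.4 ± 0.14 to Vnn1 at −1.27 ± 0.20. Untreated males over females had 2 higher and 9 lower (median −0.20), from Plin2, a lipid droplet protein, at 0.41 ± 0.10 to Cyp4a14 at −3.10 ± 0.35. Cyp4a14 was thus lower in untreated males and higher in males after 5 days of Adeno-Cux2. With the software's log ratios the male day 5 split became 9 higher and 2 lower. Without male day 5 replicate 1 the 11 lower calls there became 1, and without its replicate 2 the 9 higher calls became 3. Without female replicate 2 the 9 lower and 3 higher calls there became 1 and 1, and without untreated replicate 1 the 9 lower calls became 4.

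Pparg, the adipogenic fatty acid receptor, was lower with Adeno-Cux2 than with Adeno-CMV in males at day 3 and in the female pools so labelled. Female arrays read −0.35 and −0.48, for a fit of −0.41 ± 0.11 (adjusted p = 0.0408). Male day 3 arrays read −0.30 and −0.73, for −0.52 ± 0.11 (adjusted p = 0.00806). Males at day 5 read −0.36 and −0.14 (adjusted p = 0.181), so all 4 male arrays were below 0. Untreated males over females stood at −0.05 ± 0.11 (adjusted p = 0.819). The female call was the least secure of the receptor calls and was lost in 7 of 20 alternatives (largest adjusted p = 0.278). They included leaving out either female array (0.278 and 0.240) or either untreated array (0.0514). The day 3 call was lost without its replicate 2 (−0.32, adjusted p = 0.168).

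Of 9 Pparg targets, lipid droplet and adipocyte genes, 5 were higher and 1 lower in males at day 3, where Pparg was lower. Their median was 0.38, and the shares over all genes were 23.7% and 20.3%. Cidec, a lipid droplet protein, led at 2.40 ± 0.14 (5.26-fold), and Mogat1, a monoacylglycerol acyltransferase, was the 1 called lower, at −0.64 ± 0.20. Females at day 5 had 1 higher, the fatty acid binding protein Fabp4 at 0.33 ± 0.08, and 2 lower (median −0.39), the lowest being Plin4, a lipid droplet coat protein, at −1.01 ± 0.10. Plin4 was also the lowest in males at day 5 (−0.71 ± 0.10, the 1 call there, median −0.14) and in untreated males over females (−1.46 ± 0.10, with 3 lower and none higher, median −0.21). Of 6 measured adipocyte markers, 1 was called higher in males at day 3 and in females at day 5 (Fabp4 each time), none in males at day 5, and 1 was lower in untreated males (Fabp4, −0.40). Fabp4 stands on both lists. The 5 higher calls in males at day 3 became 3 without replicate 2 there, with no background subtraction and with the software's log ratios.

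Rxra, the shared heterodimer partner, was lower in males at day 3 and lay near 0 elsewhere. The day 3 arrays read −0.72 and −0.59, for a fit of −0.66 ± 0.06 (1.58-fold lower, adjusted p = 0.000279). The other 6 arrays lay between −0.20 and 0.08, none of them near the day 3 pair, and the adjusted p was 0.382 between the untreated sexes, 0.665 in males at day 5 and 0.921 in females. The day 3 call held under all 21 alternatives (largest adjusted p = 0.0101). The main probe lies at chr2:27584900-27584959 on mm8, the build of the array's annotation, and a dimmer probe at chr2:27581805-27581864. The dimmer probe also gave a fall at day 3, −0.42 (adjusted p = 0.00358). Between the untreated sexes it read 0.41 and 0.21, with a fit of 0.31 (adjusted p = 0.0437 when it stood for the gene), against −0.09 at the main probe. The 2 probes of Rxra thus disagreed in sign between the sexes and agreed in sign at day 3.

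Esr1, the estrogen receptor, was lower in untreated males than in untreated females. The arrays read −0.90 and −1.31, for a fit of −1.11 ± 0.09 (2.15-fold lower, adjusted p = 0.00114), 133rd from the lowest of 22220 genes. No virus comparison passed the test. Day 5 males stood at 0.24 ± 0.09 (arrays 0.21 and 0.27, adjusted p = 0.143). Day 5 females stood at −0.23 ± 0.09 (arrays −0.10 and −0.35, adjusted p = 0.155). Males at day 3 stood at 0.13 ± 0.09 (arrays 0.32 and −0.07, adjusted p = 0.329). The sex difference rests on the main probe, which is printed at 10 spots on each array and lies at chr10:5343056-5343115 on mm8. A dimmer probe at chr10:5345046-5345105, for the same transcript, read 0.04 and −0.31 between the sexes and did not pass (−0.13, adjusted p = 0.306 when it stood for the gene). Its mean log2 intensity was 6.62, against 10.03 at the main probe.

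The remaining main probes lie on mm8 at chr16:38167898-38167957 (Nr1i2), chr1:173054320-173054379 (Nr1i3), chr10:88884353-88884412 (Nr1h4), chr4:132825855-132825914 (Nr0b2), chr2:90985117-90985176 (Nr1h3), chr15:85629291-85629350 (Ppara) and chr6:115455814-115455873 (Pparg). Their place in an exon or untranslated region was not analysed here, since no mm8 annotation was used. The probes of Ppara, Pparg and Esr1 were printed at 10 spots each. Over those spots of 1 array the log2 ratio had an SD of 0.0245 to 0.0773, less than the difference between the 2 arrays of most comparisons.

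The response in males differed between day 5 and day 3 for 4 of the 9 receptors, where 12.9% of all genes were called (8.10% higher at day 5 and 4.82% lower). Nr1i3 differed by 1.02 ± 0.13 (adjusted p = 0.00699), Ppara by 0.92 ± 0.15 (0.0137) and Rxra by 0.61 ± 0.09 (0.00925), each higher at day 5. Nr0b2 differed by −0.87 ± 0.10 (adjusted p = 0.00485), lower at day 5. For Nr1i3 and Nr0b2 the 2 times lay on opposite sides of 0, whereas Ppara and Rxra were lower at day 3 by more than at day 5. The other 5 differed by −0.24 to 0.28 with adjusted p of 0.16 and above. The day 5 and day 3 arrays lay on different slides, so slide and time cannot be told apart. Leaving out any of these arrays also cut the calls among all genes. All 4 calls were lost without either male day 5 array, 2 without day 3 replicate 1 and 2 without day 3 replicate 2. With the other probe of Rxra its difference was 0.30 and not called (adjusted p = 0.119). Ppara lost its call with median centring (0.72, adjusted p = 0.0709) and with no background subtraction (0.79, 0.0547), and the software's log ratios left only Nr0b2 called (Nr1i3 0.0556, Ppara 0.0678, Rxra 0.0639).

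**Figure D2:**
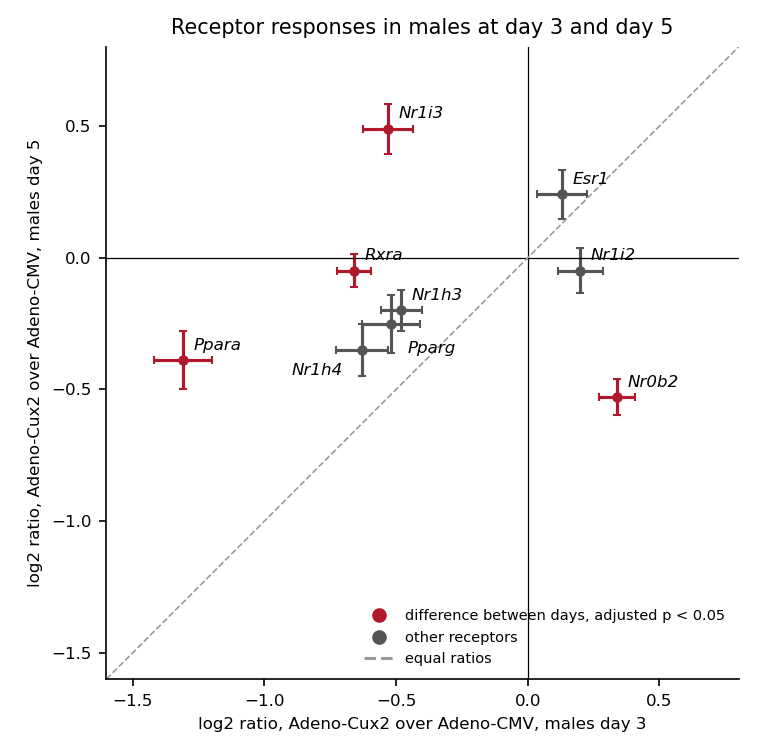
Each point is a receptor, with its log2 ratio of Adeno-Cux2 over Adeno-CMV in males at day 3 (horizontal axis) and day 5 (vertical axis) and standard errors as bars. Red points passed the test of the difference between days, and the dashed line marks equal ratios. Nr1i3 (−0.53 and 0.49) and Nr0b2 (0.34 and −0.53) lie in opposite quadrants, and Ppara lies at −1.31 and −0.39.

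None of the 9 receptors was called for a difference between the female and the male response at day 5 in limma, where 0.207% of all genes were called (0.0360% higher in females and 0.171% lower). At an unadjusted p under 0.05 there were 3. The largest difference was that of Nr1i3, −0.62 ± 0.13 (adjusted p = 0.143), from 0.49 in males and −0.13 in females. Esr1 differed by −0.46 ± 0.13 (adjusted p = 0.25) and Nr0b2 by 0.30 ± 0.10 (0.301). The 2 sexes also lay on different slides.

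Among 34 measured nuclear receptors outside the 9 (40 listed), 15 were lower and 3 higher in males at day 3. Their median was −0.20, and the shares over all genes were 20.3% lower and 23.7% higher. Nr4a1, an immediate early orphan receptor, was the highest of the 34 at 1.27 ± 0.28. Both other retinoid X receptors fell along with Rxra, Rxrb by 0.49 and Rxrg by 0.52 on the log2 scale, as did both thyroid hormone receptors, Thra by 0.46 and Thrb by 0.63 (these day 3 values were named after they were seen). Males at day 5 had 3 higher and 3 lower (median −0.04), from Nr4a1 at 1.26 ± 0.28 to Thrb at −0.59 ± 0.08. Females had 4 lower and none higher (median −0.08), the lowest being Rxrg at −0.51 ± 0.10. Between the untreated sexes 1 was lower, Rarb at −0.51 ± 0.11, and none higher (median 0.00). Without male day 3 replicate 2 the 15 lower calls became 4, and with median centring 6. None of the 4 lower calls in females was left without female replicate 1, nor the 3 and 3 in males at day 5 without replicate 1 there, nor the 1 between the sexes without untreated replicate 1.

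The 24 receptor coregulators were called 6 higher and 4 lower in males at day 3, near the shares over all genes (23.7% and 20.3%). The chaperone Hsp90aa1, which holds several steroid receptors ready for ligand, was at 0.95 ± 0.22, and Ppargc1b, a coactivator of oxidative metabolism, at −1.10 ± 0.21. Day 5 males had 1 higher (the corepressor Nrip1, 0.47 ± 0.10) and 3 lower, against 13.9% and 4.95% of all genes. The lowest was Lpin1, a phosphatidate phosphatase and coactivator of Ppara, at −0.98 ± 0.12. Females had 4 lower and none higher (all genes 6.31% and 12.8%), again with Lpin1 lowest at −0.83 ± 0.12. Lpin1 also stood lowest in untreated males over females (−1.45 ± 0.12), where 3 were lower and 1, the transcriptional cofactor Cited2, was higher (0.61 ± 0.10). Lpin1 was thus lower in 3 of the 4 comparisons. Without male day 3 replicate 1 the 6 higher and 4 lower calls became 2 and 0, without male day 5 replicate 1 none was called there, and without female replicate 1 the 4 lower became 1, as did the 3 lower between the sexes without untreated replicate 1. For males at day 3, median centring gave 7 higher and 1 lower, and the software's log ratios 3 and 4.

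**Figure D3:**
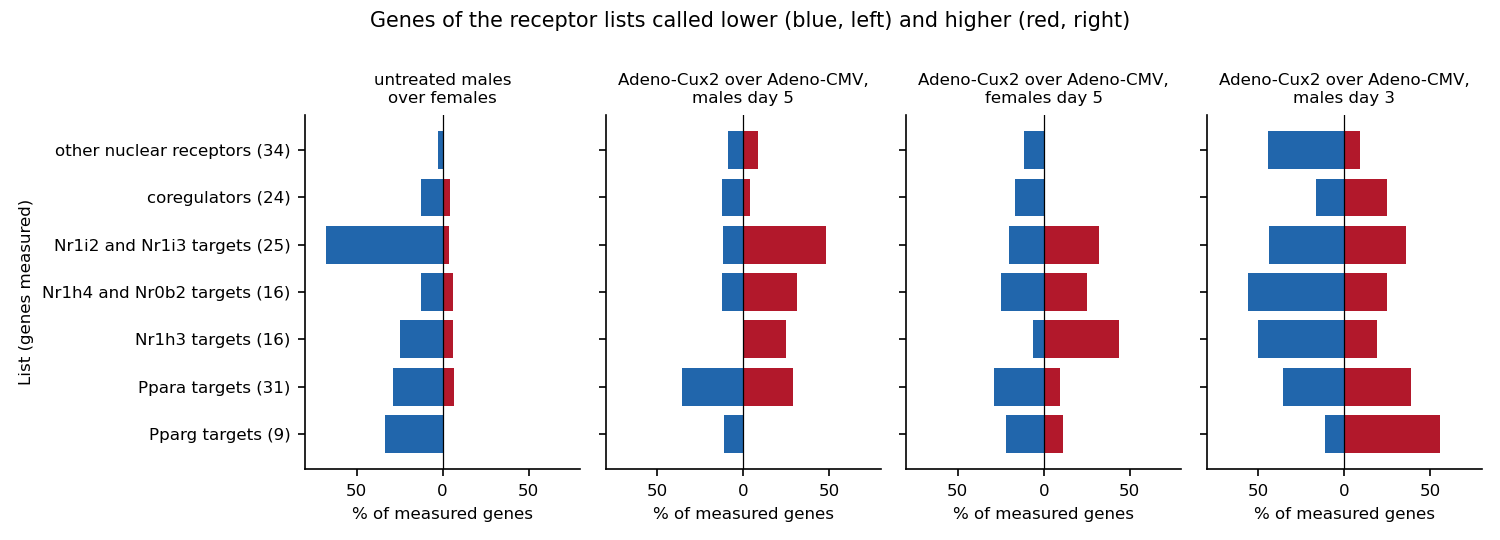
Bars give the percentage of the measured genes of each list (rows, with the number measured) called lower (blue, to the left) or higher (red, to the right) in the 4 comparisons (panels), at an adjusted p under 0.05. The Nr1i2 and Nr1i3 targets reach farthest left between the untreated sexes (17 of 25 lower, all genes 6.14%). The Pparg targets reach farthest right in males at day 3 (5 of 9 higher, all genes 23.7%). All lists were chosen with earlier results of these data known.

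Markers of the liver's cell types moved in the same arrays, and their counts are to be read beside the all-gene shares given above. These are bulk samples, in which fewer cells of a type and less RNA per cell cannot be told apart. All 14 measured hepatocyte markers were well above background in every group. In males at day 3, where 6 receptors fell, 9 hepatocyte markers were lower and 1 higher (median −0.58, lowest Cyp2e1 at −2.49 ± 0.08), and their summed signal was 1200000 to 1740000 in the Adeno-Cux2 pools against 1870000 to 2330000 in the Adeno-CMV pools. Day 5 males had 5 higher and 1 lower (median 0.22), females 5 and 2 (median 0.24), and untreated males none and 1 (median −0.22). Some of these calls had arrays on both sides of 0. They were Alb (1.58 and −0.16) and Fgb (0.78 and −0.02) in day 5 males. In females they were Alb (1.25 and −0.02) and Fgb (0.89 and −0.29). The 1 untreated call (Fgb, 0.13 and −0.99) and the 1 higher call at day 3 (Fgb, 0.77 and −0.25) were split as well. The median hepatocyte marker thus lay close to the receptors' median of −0.52 at day 3 and above it at day 5, and the part of hepatocyte content in the receptor values was not tested.

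Markers of blood-derived and non-parenchymal cells mostly rose with the virus that carried Cux2. Of 15 macrophage markers, 13 were higher in males at day 5 (median 1.24), 11 in females (0.78) and 7 in males at day 3, where 4 were lower (0.19). Their summed signal was 157000 to 160000 in male day 3 Adeno-Cux2 pools and 75000 to 92600 in Adeno-CMV pools, 163000 to 191000 against 62700 to 73500 in males at day 5, and 220000 to 222000 against 104000 to 105000 in females. Of 9 neutrophil markers 8 were higher in each virus comparison, and in untreated males 4 were lower, with 6 macrophage markers. Of 10 stellate cell markers, 9 were higher in males at day 5, 8 in females and 6 in males at day 3, with 1 lower at day 3. Endothelial markers (10 measured) had 4, 4 and 3 higher with 2 lower at day 3. Cholangiocyte markers (9 measured) had 4, 6 and 4 higher with 1 lower at day 3. T and natural killer cell markers (11 measured) had 7, 4 and 7 higher. Those called higher were among Gzma, Gzmb, Klrb1c, Klrd1, Ncr1, Nkg7 and Prf1. None of the T cell genes Cd3e, Cd3g, Cd4 and Cd8a was called higher, and Cd3e was the 1 lower at day 3 (−0.23). In untreated males 3 stellate, 2 endothelial, 2 T and natural killer and 1 cholangiocyte marker were lower, and 1 cholangiocyte marker was higher. Their part in the receptor values was not tested.

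Traces of neighbouring tissue also differed between pools. Of 10 skeletal muscle markers, 7 were lower in the female pools labelled Adeno-Cux2 (median −2.40) and 1 was higher in males at day 5, with none called elsewhere. Their summed signal ran from 1070 to 22800 over all pools, highest in a female Adeno-CMV pool. None of 8 pancreas markers was called in any comparison (at an unadjusted p under 0.05, 1 in females and none elsewhere), but their summed signal reached 199000 in 1 female Adeno-Cux2 pool against 1120 in the other. Pearson r between the paired arrays, taken over genes that are no independent replicates, was 0.612 (untreated), 0.873 (males at day 5), 0.678 (females) and 0.893 (males at day 3).

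The level of each receptor was also read in single pools, as the log2 signal of its channel after normalization between arrays. Such levels compare groups within 1 probe only, the groups span 2 slides, and no test was made on them. Nr1i3 had the widest spread, 2.34 from the highest to the lowest pool. It was highest in untreated females (13.43 and 13.55) and untreated males (13.42 and 12.99), and every pool of virus-treated mice lay lower, between 11.21 and 12.47. Male day 5 Adeno-Cux2 pools led the treated groups (12.47 in each), followed by male day 5 Adeno-CMV, female Adeno-CMV, male day 3 Adeno-CMV and female Adeno-Cux2, with male day 3 Adeno-Cux2 last (11.22 and 11.21). Only 2 of its 7 neighbouring groups in that order overlapped.

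Ppara, which also spread widely (2.11), followed a like order. It was highest in untreated males (12.09 and 11.87) and females (11.79 and 11.93) and lowest in female day 5 Adeno-Cux2 (10.16 in each) and male day 3 Adeno-Cux2 (10.30 and 9.98). Female Adeno-CMV pools (10.78 and 10.82) lay below male day 5 Adeno-CMV pools (11.51 and 11.54) without overlap, and 4 of 7 neighbours overlapped. Pparg did not follow this order. Untreated males (11.39 and 11.15) and females (11.35 and 11.29) stood near the bottom with male day 3 Adeno-Cux2 (11.45 and 11.10), while the Adeno-CMV groups were at the top, from 11.76 to 12.14. Its pools spanned 1.04, and 4 of 7 neighbours overlapped.

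At the main probe, all female Esr1 pools lay above all male pools, with either virus or none. Untreated females (10.69 and 10.78) and female Adeno-CMV (10.44 and 11.00) and Adeno-Cux2 (10.34 and 10.65) pools held the top 3 places. All male pools lay lower, from 10.20 down to 9.13 in male day 5 Adeno-CMV, although the untreated males (9.78 and 9.47) lay below both male day 3 groups in the mean. The pools spanned 1.87, and 4 of 7 neighbours overlapped. Male day 5 means (9.43 and 9.19, slide 1) also lay below male day 3 means (10.09 and 9.96, slide 2). Slide and day cannot be told apart there. For Nr1i2 the 3 female groups again held the top 3 places (11.63 to 11.90), and untreated males the last (11.27 and 11.17), within a span of 0.73.

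The other 4 receptors spanned less than Pparg. Nr1h4 pools spanned 0.88, with the 3 Adeno-Cux2 groups in the last 3 places (14.57 to 14.88) and all others at 15.06 and above. Rxra spanned 0.80, and the male day 3 Adeno-Cux2 pools (14.76 and 14.68) lay apart from all others (15.01 to 15.48). Nr1h3 spanned 0.73, with male day 5 and day 3 Adeno-Cux2 last. Nr0b2 spanned 0.74, and all 7 of its neighbouring groups overlapped.

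**Figure D4:**
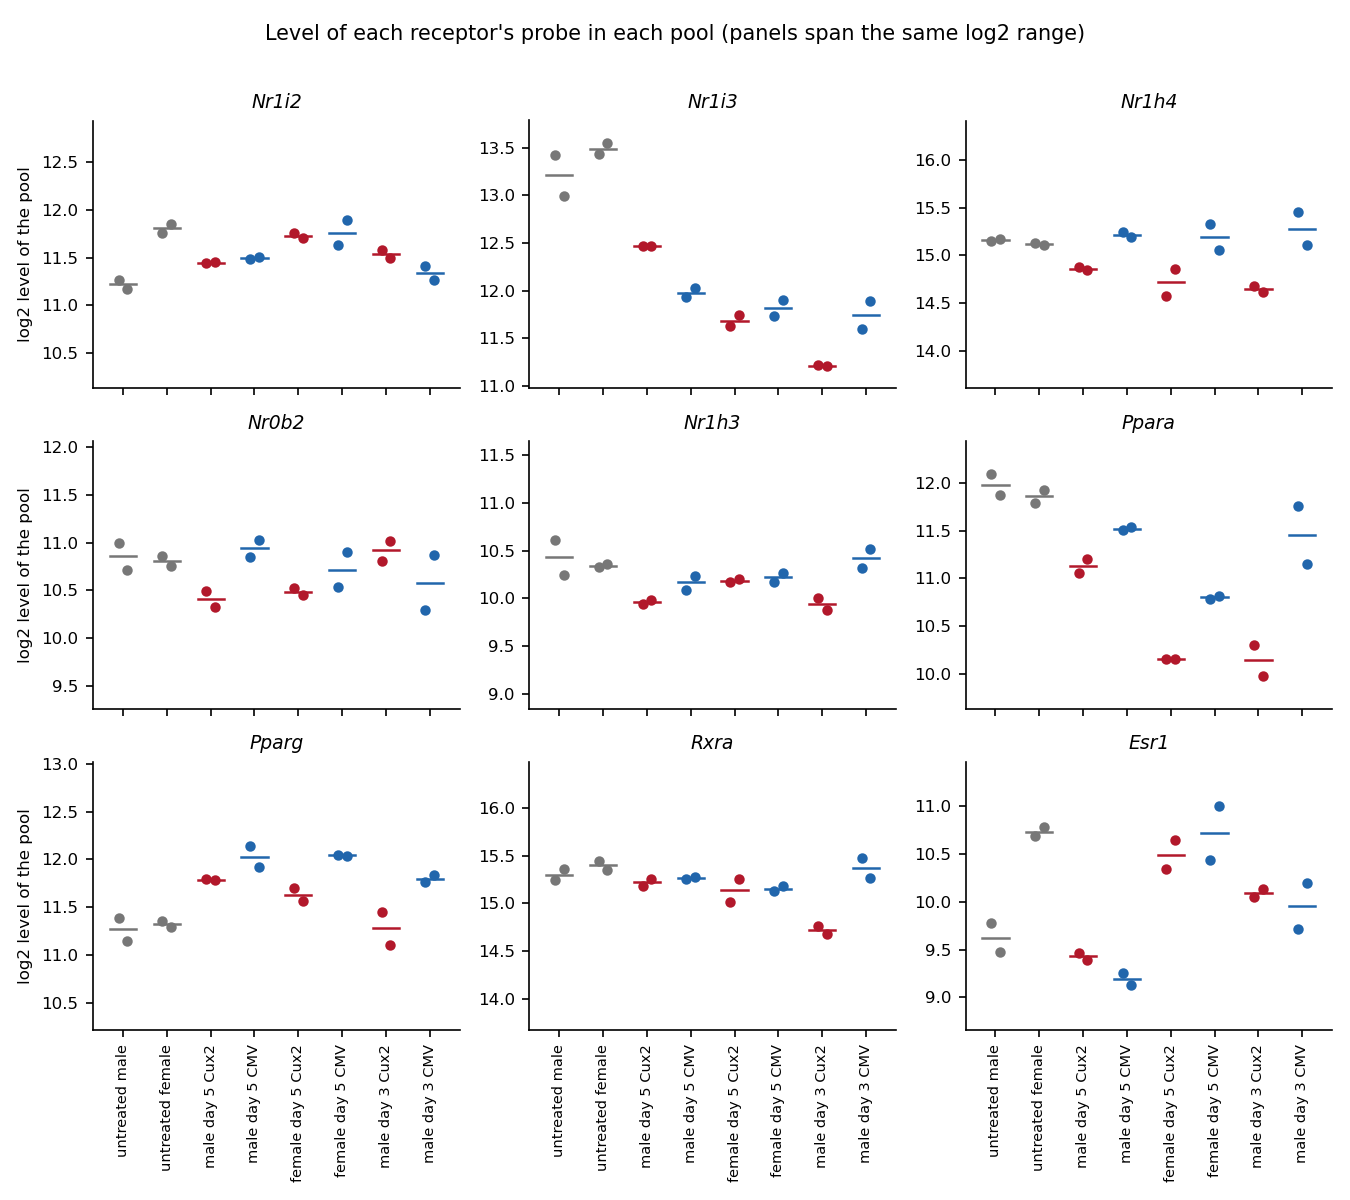
Points are the log2 level of each receptor's probe in the 2 pools of each of the 8 groups, and lines are their means (grey untreated, red Adeno-Cux2, blue Adeno-CMV). All panels span the same log2 range, and levels compare within a panel only. Nr1i3 is highest in the 4 untreated pools (12.99 to 13.55), and Esr1 is higher in the 6 female pools than in the 10 male pools.

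The genes whose log2 ratio ran most like each receptor over the 8 arrays were taken from 22205 genes by Pearson r, as a description with no test. The arrays of a comparison share their design, arrays of 1 orientation share dye effects, and r is blind to an offset and to the size of the change. For Rxra they were Pank1 (r = 0.997), a pantothenate kinase, and Insr (0.993), the insulin receptor, which stood at −1.65 and −1.13 in males at day 3. Ppara was closest to Syt1 (0.995), a synaptotagmin, and Abca8a (0.991), a lipid transporter, which stood at −2.26 and −1.93 there. Nr1i2 was closest to Mknk2 (0.996), a kinase, and Dbn1 (0.994), Nr1h3 to Ganab (0.992), a glucosidase, and Psenen (0.989), and Esr1 to Ptpro (0.99) and Cyba (0.986), a phagocyte oxidase subunit. Ptpro and Cyba stood at 1.32 and 1.39 in males at day 5, far from the 0.24 of Esr1 there. For Nr0b2 they were Pllp (0.975) and 4933417G07Rik (0.972), and for Pparg Zfp839 (0.973) and Inpp5e (0.971). Nr1h4 and Nr1i3 were each closest to a transcript with no gene symbol and next to Il4 (0.979) and Dop1a (0.961). Il4 stood at −0.06 in males at day 3, where Nr1h4 stood at −0.63, and Dop1a at −0.10, where Nr1i3 stood at −0.53.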

How the data were processed

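Liver RNA pools were hybridised to 8 Agilent 4x44k v1 mouse arrays with 2 dyes. Scans were read out by Agilent Feature Extraction, version 9.5.3.1 (untreated and male day 5 arrays, slide 1) or 10.7.1.1 (female day 5 and male day 3 arrays, slide 2), per the file headers. Deposited per array are intensity values, the median spot and local background signals per channel, not normalized. LogRatio, also deposited, is the log10 ratio of red over green after the software's own correction, per the file headers, and the deposited series matrix equals it within 5e-06, with the sign turned on replicate 2. Deposited flags of 0 or 1 mark spots that are well above background, saturated or outliers, per the file headers.

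Background was corrected by normexp (offset 50) and ratios by loess within arrays in limma 3.58.1 (R 4.3.3), leaving control and outlier spots at weight 0. Ratios were turned to males over females or Adeno-Cux2 over Adeno-CMV. Of 41174 probes, 33330 passed the filter, which asked that both arrays of some comparison flag the probe well above background in 1 channel or both. The brightest probe stood for a gene. Names came from RefSeq on GRCm38.p6, and all 11 receptor probes matched by accession.

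One model held 4 comparisons and a dye term, on 3 residual and 3.63 prior degrees of freedom. The 2-sided moderated p of limma was adjusted by Benjamini-Hochberg over 22220 genes. Replicate 1 always carried the numerator in red, so the dye term is also the block for the replicate number. Deviations of same-numbered arrays correlated at −0.0945 to 0.297 over 6 pairs. Standard errors reflect pools and not single mice, and 2 arrays per comparison limit the precision. Array medians of the signal ranged from 343 to 442 (green) and from 430 to 512 (red), and 68.2% to 80.1% of gene spots were well above background.

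Receptors, 7 pathway lists and 10 cell type lists were chosen with earlier results of these data known. All 9 receptors and Cux2 were named, and from each pathway list and comparison the largest called rise and fall with both arrays on 1 side of 0, apart from a few genes not reported here. The genes named from cell type lists are the largest called change, the T cell genes and called T and natural killer markers, and called hepatocyte markers with split arrays. For each receptor, the 2 genes of highest Pearson r were named. The alternatives tried were other background corrections and offsets, median centring, the software's log ratios, other probe filters, the other probe or the mean of a gene's probes, other dye terms, the arrays of 1 slide only, intensity-trended and robust moderation, and leaving out each array. The fits were tested on simulated data.

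The series text gives 11 untreated females, while the labels give 10, and counts 4 sets of hybridisations in 1 place and 3 in another.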

Additional observations from a re-analysis of the deposited data

Results flagged for a closer look

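In males the response to Adeno-Cux2 differed between day 5 and day 3 for 4 of the 9 receptors, by the contrast of the 2 responses in limma. Of all genes, 12.9% were called in that contrast (8.10% higher at day 5 and 4.82% lower). Nr1i3 was higher at day 5 than at day 3 by 1.02 ± 0.13 (log2, adjusted p = 0.00699), Ppara by 0.92 ± 0.15 (adjusted p = 0.0137) and Rxra by 0.61 ± 0.09 (adjusted p = 0.00925), although its other probe gave 0.30 (adjusted p = 0.119). Nr0b2 was lower at day 5 by −0.87 ± 0.10 (adjusted p = 0.00485). The 2 days lay on different slides, so time and slide cannot be told apart. Beside these values, 8 of 14 hepatocyte markers were called higher at day 5 than at day 3 and none lower (median 0.70). Of 15 macrophage markers, 11 were higher and 2 lower (median 0.92). The part of these cells was not tested.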

How the results depend on the processing

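The limits throughout are 2 arrays per comparison and a slide that separates both contrasts between responses. With the other probe of Esr1, the 2 receptors called between the untreated sexes became 1. With median centring and with the software's log ratios, the 2 called in males at day 5 became 1, and with only the arrays of their own slide they became 4. With the software's log ratios, the 3 called in females became 1, and the 4 called for day 5 against day 3 became 1. With the other probe of Rxra, its untreated value reversed to 0.31 (adjusted p = 0.0437) from an uncalled −0.09. Leaving out each array in turn gave 1 to 2 receptors between the untreated sexes, 0 to 3 in males at day 5, 0 to 3 in females, 3 to 7 in males at day 3, 0 for the female against the male response, and 0 to 4 for day 5 against day 3. In males at day 3 the other alternatives gave 6 to 7. Where leaving out an array lowered a receptor count most, the calls among all genes fell as well. The cause of these changes was not tested. With 1 array left out, fewer arrays remain and fitted values can move too, as for Nr1h4 in females (−0.48 to −0.25 without female replicate 1). Without the replicate block, which is the dye term, Nr0b2 in males at day 3 kept its value of 0.34 but lost its call (adjusted p = 0.0907), and Ppara in males at day 5 gained 1 (adjusted p = 0.0402). The block changed no other call of the 9 receptors in the 4 comparisons. Among the values of single receptors, alternatives other than leaving out an array kept 613, made 11 called and 17 uncalled, and reversed 1. Leaving out an array kept 394, made 8 called and 30 uncalled.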
